A study of Mus musculus with 16 samples.

Results

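The proteasome is the protease that degrades ubiquitin-tagged proteins, and its transcripts were examined in quadriceps muscle and brown adipose tissue of mice with a mutated upstream open reading frame in Ppargc1a. Members were all gene symbols that begin with Psma to Psmg and a number, without the interferon-induced catalytic subunits Psmb8, Psmb9 and Psmb10. This gave 47 of the 18657 symbols in the tables, and all 47 were listed in both tissues. They comprise 16 genes of the core, 9 of the base, 8 of the lid, 7 assembly chaperones, 6 activators and regulators, and Psmc3ip, which matches by its symbol alone. Psmc3ip encodes a partner protein of meiotic recombinases and is no proteasome subunit.

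The mice were male C57BL/6 animals of 10 weeks, housed at room temperature. Mice homozygous for the uORF-TAA allele (4 libraries per tissue) were compared with wild-type littermates (4 libraries per tissue). The allele lies in Ppargc1a, the gene of the transcriptional coactivator PGC-1alpha, and its labels name no promoter or Cre that would limit it to a cell type. Ppargc1a mRNA itself was at a log2 fold change (uORF-TAA over wild type) of 0.058 ± 0.13 (SE) in quadriceps and 0.0016 ± 0.11 (SE) in brown fat in the authors' deposited tables, and such a value does not check an allele that leaves the transcript in place. Stranded mRNA libraries were made from whole tissue, in which fewer cells of a type and less RNA per cell cannot be told apart. Whether an animal gave both tissues is not stated in the labels. Only the authors' deposited comparison of each tissue was analysed here, so each gene has a mean over 8 libraries, a log2 fold change and its standard error, and no value per library. Estimated depth ran from 11.4 to 31.8 M counts per library in quadriceps and from 11.01 to 17.8 M in brown fat.

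In the particle, 7 alpha and 7 beta subunits form the rings of the 20S core, whose protease sites lie inside. The 19S cap is made of a base, with a ring of ATPases that unfolds substrates, and a lid, which removes ubiquitin chains. Dedicated chaperones help to assemble the core and the base and then leave. Other caps can open the core, among them PA28 and PA200. In muscle the proteasome is known for breaking down contractile proteins during wasting, and in brown fat for a protein quality control that the factor encoded by Nfe2l1 drives during cold.

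Matches to a pair of short promoter motifs are shown because the study altered a coactivator and these motifs belong to regulators known to act with it or on proteasome genes. PGC-1alpha acts through several factors, among them nuclear respiratory factor 1, the product of Nrf1, which binds GC-rich palindromes. The product of Nfe2l1 binds antioxidant response elements and is the main activator of proteasome genes when the proteasome is inhibited. Windows from 250 bases before to 50 bases after the start site were available from RefSeq (GRCm38.p6) for 39 of the 47 genes. Psma8, Psmb1, Psmb2, Psmb7, Psmc3, Psmd3, Psmd7 and Psmg2 had none. On either strand, the letters GCGC, any base and TGCGC in a row, a form of the respiratory factor palindrome, were found for 6 of the 26 core, base and lid genes with a window (23.1%), against 8.89% of 13461 genes in the tables, a difference given without a test. The matches of these 6 genes are shown 5′ to 3′ on the strand of the motif, with the motif in capitals.
Psma2: gcccctcttGCGCATGCGCaagggtcaa
Psma3: gcagagagcGCGCGTGCGCagaaaccat
Psma4: atggctcccGCGCGTGCGCaggactgcg
Psmc4: aaggatgttGCGCGTGCGCagtaactct
Psmc5: ttcgcctccGCGCCTGCGCgatagagtg
Psmd14: aggcggcctGCGCGTGCGCtgtgtgctc

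These windows lie at chr13:14613106-14613133 (plus strand) for Psma2, chr12:70974536-70974563 (minus) for Psma3, chr9:54950789-54950816 (minus) for Psma4, chr7:28050243-28050270 (plus) for Psmc4, chr11:106256127-106256154 (plus) for Psmc5 and chr2:61711605-61711632 (plus) for Psmd14, all in GRCm38.p6. The antioxidant response element, searched as TGACNNNGC on both strands, was found for 4 of the same 26 genes (15.4%), against 16.3% of genes in the tables. These 4 matches are shown in the same way.
Psmb5: gtgaagttgTGACGTCGCggcgttgcc
Psmb6: taaagagagTGACGGAGCgctttacga
Psmc6: agcaatgccTGACTTAGCtactggctg
Psmd12: gggcaaatgTGACACAGCaga

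In GRCm38.p6 they lie at chr14:54618025-54618051 (minus) for Psmb5, chr11:70525339-70525365 (plus) for Psmb6, chr14:45329588-45329614 (minus) for Psmc6 and chr11:107479278-107479298 (minus) for Psmd12. Outside core, base and lid, windows of Psmd9 and Psme4 held the element and that of Psmg1 the palindrome. No member window held both motifs. A match describes letters in a window and not a bound site.

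No member passed the test in either tissue. By the authors' deposited DESeq2 test with an adjusted p under 0.05, 0 of 47 members were called in quadriceps, where 0% of all genes were, and 0 in brown fat, where 0.0863% of genes were. At an unadjusted p under 0.05, 0 members were called in quadriceps in the authors' deposited table, against 2% of all genes (0.942% higher and 1.06% lower in uORF-TAA). In brown fat 1 member, Psme1, was higher at that level in the authors' deposited table and 0 were lower, against 2.07% of all genes (0.918% higher and 1.15% lower). A count of 1 in 47 is near the share of all genes called in either direction. The directions given here assume that each table names its numerator first. Those of a tissue turn over if this fails for its table. The opposite reading was computed for brown fat alone.

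The data bound the size of a change gene by gene, with no adjustment for the number of genes. The 95% intervals of all 47 members stayed within 0.36 of 0 on the log2 scale in quadriceps and within 0.41 in brown fat, computed from the authors' deposited table. As folds, these bounds are 1.29 and 1.33. The deposited fold changes behave as shrunken towards 0, so the bounds hold on that scale. They say little for the 5 members with a mean normalized count under 50 in a tissue, such as Psma8 and Psmb11. Members with a mean normalized count of at least 50 numbered 42 in quadriceps and 43 in brown fat, and their standard errors ran from 0.075 to 0.13 and from 0.081 to 0.13.

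**Figure D1:**
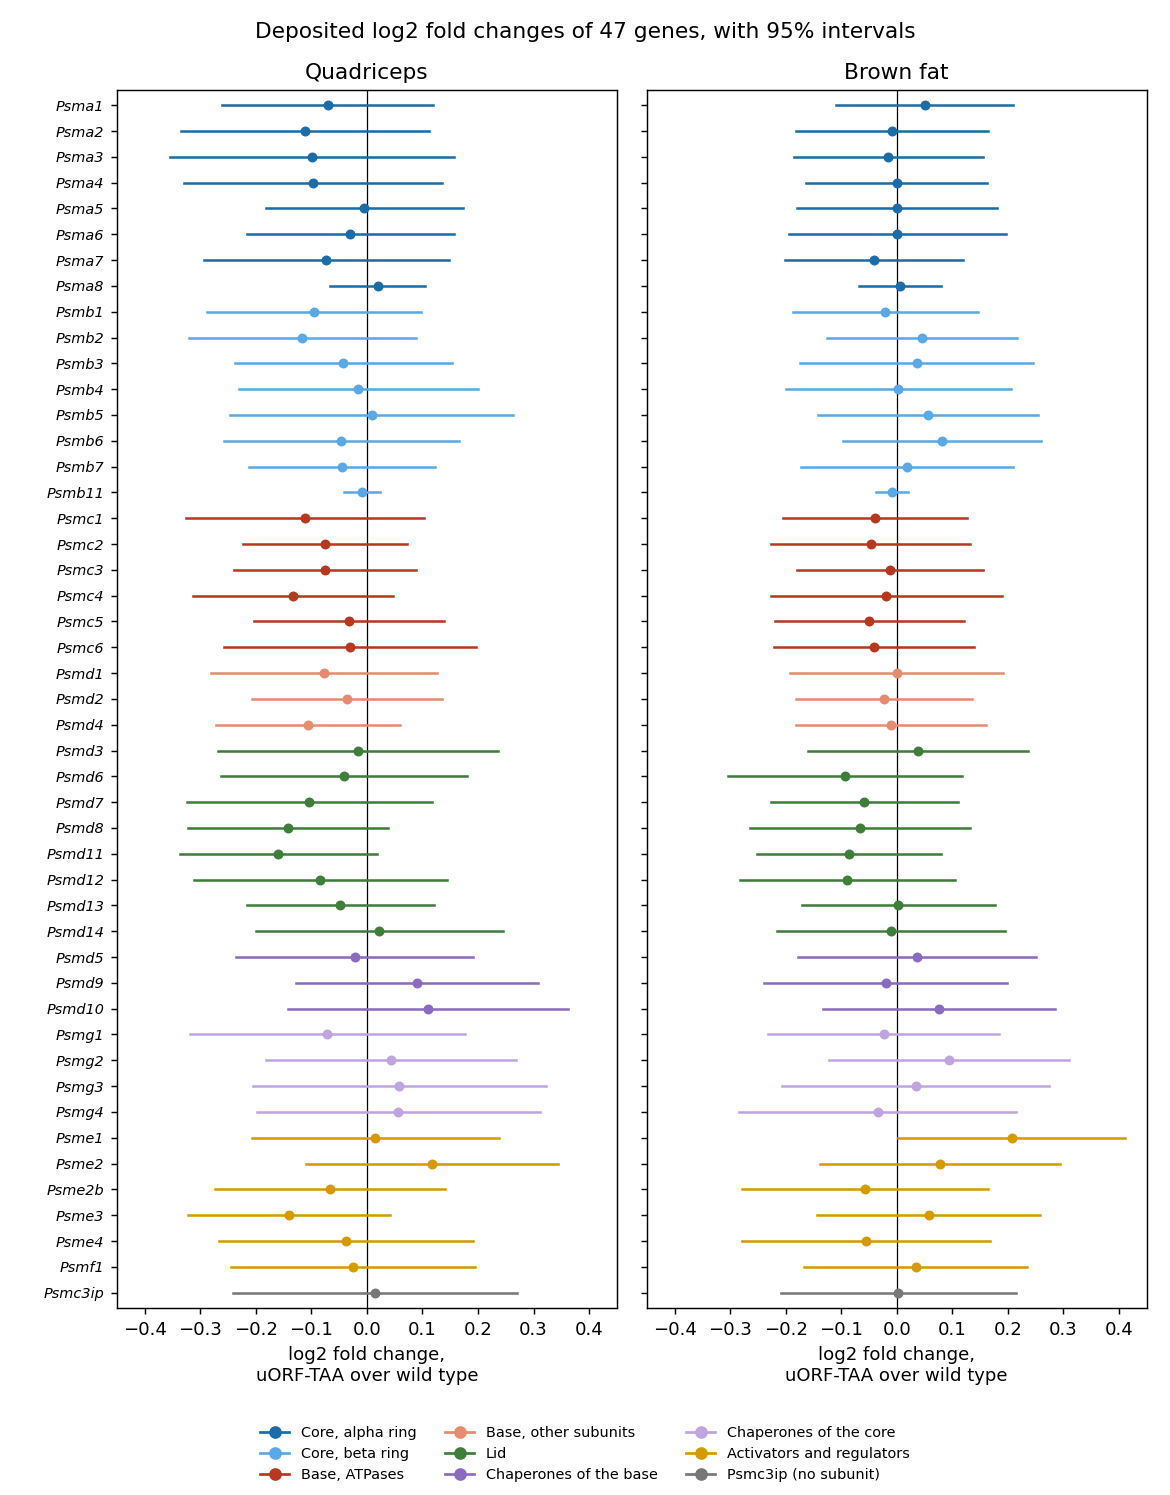
Log2 fold changes (uORF-TAA over wild type) of the 47 genes in quadriceps (left) and brown fat (right), as points with 95% intervals from the deposited standard errors, coloured by role. Core, base and lid genes lie mostly left of 0 in quadriceps and around 0 in brown fat, and the interval of Psme1 in brown fat is the one that stays off 0.

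The particle genes lay mostly below 0 in quadriceps, each with a 95% interval that held 0. Of the 33 core, base and lid genes, 30 had a log2 fold change below 0 in the authors' deposited table, with a median of -0.071, whereas 48.3% of all genes were below 0 and their median was 0.0024. In brown fat 21 of 33 were below 0 in the authors' deposited table, with a median of -0.0096, beside 48.8% and 0.0015 over all genes. Brown adipocyte markers lay on the other side, with 9 of 10 above 0 in quadriceps (median 0.064) and 9 of 10 in brown fat (median 0.087) in the authors' deposited tables. Among these, Dio2, the deiodinase that activates thyroid hormone, was at 0.48 ± 0.12 (SE; p = 0.000117, adjusted p = 0.099) in brown fat in the authors' deposited DESeq2 table. In quadriceps 5 of 10 muscle fibre markers and 5 of 10 macrophage and leukocyte markers were above 0 in the authors' deposited table. The part of cell make-up in the counts of particle genes was not tested. Subunit transcripts of a shared complex are not independent of each other, and no test of these counts was made. If the quadriceps table names its numerator second, the 30 genes below 0 there lie above it.

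In the core, 14 of 16 genes were below 0 in quadriceps and 6 of 16 in brown fat, with medians of -0.046 and 0.0019 in the authors' deposited table. The alpha ring gates the entrance of the core. Psma2 had the smallest p of its subunits in quadriceps, with a log2 fold change of -0.11 ± 0.11 (SE; p = 0.326, adjusted p = 1.00) in the authors' deposited DESeq2 table. Psma4 followed there with -0.096 ± 0.12 (SE; p = 0.416, adjusted p = 1.00) in the authors' deposited DESeq2 table. The same table listed Psma3 at -0.099, Psma7 at -0.073, Psma1 at -0.071, Psma6 at -0.030 and Psma5 at -0.0049. The authors' deposited DESeq2 table of brown fat gave Psma1 0.050 ± 0.082 (SE; p = 0.539, adjusted p = 1.00) and Psma7 -0.040 ± 0.082 (SE; p = 0.621, adjusted p = 1.00). The other expressed alpha genes were closer to 0 there, with Psma3 at -0.015, Psma2 at -0.0086, Psma6 at 0.00094, Psma5 at 0.00048 and Psma4 at -0.00027 in the authors' deposited table. Each of these is smaller than its standard error.

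The beta ring carries the protease sites, which in mammals are the chymotrypsin-like site of Psmb5, the trypsin-like site of Psmb7 and the caspase-like site of Psmb6. These 3 catalytic genes lay within a standard error of 0 in quadriceps, at log2 fold changes of 0.0084 for Psmb5, -0.045 for Psmb7 and -0.046 for Psmb6 in the authors' deposited table. The authors' deposited table had them at 0.057 for Psmb5, 0.019 for Psmb7 and 0.081 for Psmb6 in brown fat. Psmb6 had the smallest p of the ring in brown fat (0.081 ± 0.091, SE; p = 0.371, adjusted p = 1.00) in the authors' deposited DESeq2 table. Among the structural beta genes, Psmb2 was at -0.12 ± 0.10 (SE; p = 0.267, adjusted p = 1.00) and Psmb1 at -0.095 ± 0.098 (SE; p = 0.332, adjusted p = 1.00) in quadriceps in the authors' deposited DESeq2 table. Psmb3 was listed at -0.042 and Psmb4 at -0.015 in that table. For brown fat, the authors' deposited table listed Psmb2 at 0.045, Psmb3 at 0.036, Psmb4 at 0.0028 and Psmb1 at -0.020.

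Tissue-restricted core subunits were at or near 0. Psma8, the alpha subunit of testis, had a mean normalized count of 0.866 in quadriceps and 1.06 in brown fat, with a log2 fold change of 0.019 in quadriceps and one of 0.0055 in brown fat, from the authors' deposited tables. Psmb11, the catalytic subunit of the thymus, had a mean of 0.0972 in quadriceps and 0.0901 in brown fat, levels that correspond to a single read in a single library of each tissue. Its log2 fold change of -0.0094 in quadriceps and that of -0.0084 in brown fat (SE 0.015; p = 0.563, with no adjusted p), both from the authors' deposited tables, therefore rest on 1 read each.

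In the base, all 9 genes were below 0 in both tissues, with medians of -0.076 in quadriceps and -0.023 in brown fat in the authors' deposited tables. The 6 ATPases Psmc1 to Psmc6 form the unfolding ring. In quadriceps Psmc4 was at -0.13 ± 0.092 (SE; p = 0.148, adjusted p = 1.00) and Psmc1 at -0.11 ± 0.11 (SE; p = 0.306, adjusted p = 1.00) in the authors' deposited DESeq2 table. Psmc2 and Psmc3 were both listed at -0.076, Psmc5 at -0.032 and Psmc6 at -0.030 in that table. The authors' deposited DESeq2 table of brown fat gave Psmc5 -0.049 ± 0.087 (SE; p = 0.574, adjusted p = 1.00) and Psmc2 -0.047 ± 0.091 (SE; p = 0.608, adjusted p = 1.00). Psmc6 was at -0.042, Psmc1 at -0.039, Psmc4 at -0.019 and Psmc3 at -0.013 in that table.

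The other base genes are Psmd1 and Psmd2, the scaffold subunits that dock ubiquitin receptors, and Psmd4, a ubiquitin receptor itself. Psmd4 was at -0.11 ± 0.084 (SE; p = 0.209, adjusted p = 1.00) and Psmd1 at -0.077 ± 0.10 (SE; p = 0.458, adjusted p = 1.00) in quadriceps in the authors' deposited DESeq2 table, where Psmd2 was at -0.036. The authors' deposited DESeq2 table of brown fat listed Psmd2 at -0.023 ± 0.081 (SE; p = 0.772, adjusted p = 1.00), Psmd4 at -0.0096 ± 0.087 (SE; p = 0.913, adjusted p = 1.00) and Psmd1 at -0.00030.

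In the lid, 7 of 8 genes were below 0 in quadriceps and 6 of 8 in brown fat, with medians of -0.066 and -0.062 in the authors' deposited tables. Psmd11, a lid scaffold subunit whose level is known to limit assembly of capped proteasomes in human stem cells, had the smallest p of all members in quadriceps. Its log2 fold change was -0.16 ± 0.091 (SE; p = 0.0780, adjusted p = 1.00) in quadriceps and -0.086 ± 0.085 (SE; p = 0.311, adjusted p = 1.00) in brown fat in the authors' deposited DESeq2 tables. Psmd8 followed in quadriceps with -0.14 ± 0.091 (SE; p = 0.121, adjusted p = 1.00), and Psmd12 was at -0.089 ± 0.099 (SE; p = 0.367, adjusted p = 1.00) in brown fat, both in the authors' deposited DESeq2 tables. The catalytic deubiquitinase of the lid, Psmd14, was at 0.022 in quadriceps and -0.010 in brown fat in the authors' deposited tables. In quadriceps the authors' deposited table listed Psmd7, the partner of Psmd14, at -0.10, Psmd12 at -0.084, Psmd13 at -0.048, Psmd6 at -0.041 and Psmd3 at -0.017. For brown fat, the authors' deposited table listed Psmd6 at -0.093, Psmd8 at -0.066, Psmd7 at -0.058, Psmd13 at 0.0032 and Psmd3 at 0.038. All lid intervals held 0 in both tissues.

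Of the 7 assembly chaperones, 2 were below 0 in quadriceps and 3 in brown fat (42.9%, near the 48.8% of all genes there), with medians of 0.057 and 0.034 in the authors' deposited tables. Psmd5, Psmd9 and Psmd10 hold ATPase pairs during assembly of the base. Psmd10, also known as gankyrin, was at 0.11 ± 0.13 (SE; p = 0.393, adjusted p = 1.00) in quadriceps and 0.076 ± 0.11 (SE; p = 0.474, adjusted p = 1.00) in brown fat in the authors' deposited DESeq2 tables. Psmd9 was at 0.090 ± 0.11 (SE; p = 0.415, adjusted p = 1.00) in quadriceps and -0.020 in brown fat, and Psmd5 at -0.022 in quadriceps and 0.037 ± 0.11 (SE; p = 0.736, adjusted p = 1.00) in brown fat, in the authors' deposited DESeq2 tables. Psmg1 to Psmg4 act in pairs that help to form the alpha ring. In quadriceps Psmg1 was at -0.072 ± 0.13 (SE; p = 0.570, adjusted p = 1.00), Psmg4 at 0.057 ± 0.13 (SE; p = 0.664, adjusted p = 1.00), Psmg3 at 0.058 and Psmg2 at 0.043 in the authors' deposited DESeq2 table. The authors' deposited DESeq2 table of brown fat had Psmg2 at 0.094 ± 0.11 (SE; p = 0.394, adjusted p = 1.00), Psmg3 at 0.034 ± 0.12 (SE; p = 0.781, with no adjusted p given), Psmg1 at -0.024 and Psmg4 at -0.034.

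Activators and regulators held the 1 member with an unadjusted p under 0.05. As 1 of 47 members, this is near the 2.07% of all genes in brown fat. Psme1 and Psme2 encode the alpha and beta chains of PA28, an interferon-inducible cap of the core. In brown fat Psme1 had a log2 fold change of 0.21 ± 0.10 (SE; p = 0.0473, adjusted p = 1.00) in the authors' deposited DESeq2 table. Its interval ran from 0.0025 to 0.41, at a mean normalized count of 1186. Its partner Psme2 was at 0.12 ± 0.12 (SE; p = 0.310, adjusted p = 1.00) in quadriceps, where Psme1 was at 0.015, and at 0.078 ± 0.11 (SE; p = 0.477, adjusted p = 1.00) in brown fat, in the authors' deposited DESeq2 tables. The interferon-induced catalytic genes stood beside Psme1 in brown fat at 0.22 for Psmb8, 0.23 for Psmb9 and 0.098 for Psmb10 in the authors' deposited table, with 0 of 3 called and a smallest p of 0.0657. Of 10 macrophage and leukocyte markers 7 were above 0 in brown fat, with a median of 0.018 and 0 at an unadjusted p under 0.05 in the authors' deposited table, and their part in the value of Psme1 was not tested. Psme1 overlaps Emc9 on the other strand in the GENCODE annotation, and whether counting used strand is not given in the sources used here. Among all members, 16 overlap a gene on the opposite strand and 10 overlap one on the same strand. The part of such overlaps in the fold changes and levels was not tested.

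Psme3 encodes PA28gamma, a nuclear activator that works without ubiquitin. It was at -0.14 ± 0.093 (SE; p = 0.132, adjusted p = 1.00) in quadriceps and 0.058 in brown fat in the authors' deposited DESeq2 tables. Psme4, which encodes PA200, was at -0.038 in quadriceps and -0.055 in brown fat, and Psmf1, which encodes the regulator PI31, at -0.025 and 0.034, in the authors' deposited tables. Psme2b is a copy of Psme2 with 99.4% identity over 794 bases, so reads of the pair may have been split or lost, and both are uncertain. The authors' deposited tables had Psme2b at -0.066 in quadriceps and -0.057 in brown fat, with mean normalized counts of 7.24 and 14.1. Psmc3ip was at 0.014 in quadriceps and 0.0027 in brown fat in the authors' deposited tables.

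Genes with and without the promoter matches shown above had overlapping values. With the respiratory factor letters the 6 core, base and lid genes had a median log2 fold change of -0.098 in quadriceps, against -0.047 for the 20 with a window and no match, from the authors' deposited table. Their ranges were -0.13 to 0.022 and -0.16 to 0.0084. In brown fat the medians were -0.013 and -0.0090 in the authors' deposited table. For the antioxidant response element the medians were -0.038 with a match (4 genes) and -0.072 without (22 genes) in quadriceps, and 0.0075 and -0.0099 in brown fat, from the authors' deposited tables.

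The fold changes of the tissues were then set against each other, and no member passed the test of the difference. The difference of the log2 fold changes passed an adjusted p of 0.05 for 0 of 47 members and for 0% of 16844 genes, by a two-sided normal test of the difference. At an unadjusted p under 0.05 it was 0 members against 1.16% of genes. The deposited fold changes behave as shrunken towards 0, so the lack of calls does not show equal changes in the tissues. Psme3 had the smallest p, with a difference (quadriceps minus brown fat) of -0.20 ± 0.14 (SE; adjusted p = 1.00 over all genes). The next was Psme1 at -0.19 ± 0.15 (SE; adjusted p = 1.00 over all genes).

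Among the 31 core, base and lid genes that had means of 50 or more in both tissues, 19 were below 0 in both, 10 were below 0 in quadriceps and above 0 in brown fat, 1 had the opposite signs and 1 was above 0 in both. The lid genes Psmd11, Psmd8, Psmd12, Psmd7 and Psmd6 were among the 19. Across these 31 genes the log2 fold changes of the tissues had a Pearson's r of 0.372 and a Spearman's rho of 0.344. This is a description across genes that share libraries within each tissue. The share of all genes with each pair of signs, and their correlation, were not computed. If the table of either tissue alone names its numerator second, its signs turn over in these counts, and so do those of r and rho.

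**Figure D2:**
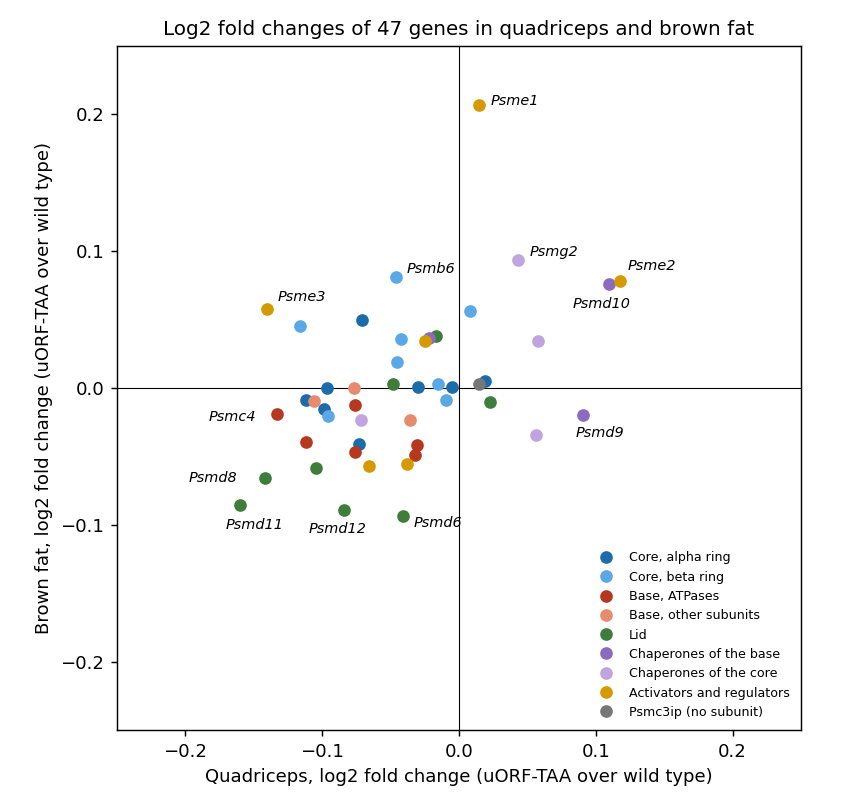
Log2 fold change (uORF-TAA over wild type) in quadriceps on the horizontal axis against brown fat on the vertical axis, with 1 point for each of the 47 genes, coloured by role. Most core and base genes lie left of 0 and close to the horizontal line, lid genes such as Psmd11 lie in the lower left, and Psme1 stands highest at 0.21 in brown fat.

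Transcript levels differed between the roles. Levels of different genes are given as mean normalized counts per kilobase of the principal GENCODE transcript, for the genes that had means of 50 or more in both tissues. In quadriceps the median level was 1503 per kilobase in the core, 2303 in the base and 1880 in the lid. In brown fat it was 1578 in the core, 1336 in the base and 825 in the lid. The assembly chaperones were far below, at medians of 82.3 per kilobase in quadriceps and 144 in brown fat. They act on the particle only while it forms.

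Within the roles the spread was wide among the genes with means of 50 or more in both tissues. In the core of quadriceps the level ran from 301 per kilobase for Psmb5 to 2831 for Psmb7, and in brown fat from 456 for Psma5 to 4839 for Psma6. The base had the narrowest range of the 5 groups in quadriceps as a ratio, from 1751 per kilobase for Psmc4 to 2908 for Psmd4. In brown fat its levels spread from 627 for Psmd1 to 2667 for Psmd4. The lid ran from 590 per kilobase for Psmd13 to 4338 for Psmd8 in quadriceps and from 529 to 2712 for the same genes in brown fat. Among these chaperones the lowest was Psmg3, at 63.1 per kilobase in quadriceps and 104 in brown fat, and Psmg4, which missed that minimum in quadriceps, was at 33.8 per kilobase there. The highest was Psmg2 at 214 per kilobase in quadriceps and Psmg1 at 419 in brown fat. Among these activators Psmf1 was lowest, at 80.2 per kilobase in quadriceps and 112 in brown fat, and Psme2b, which missed the minimum in both, was at 8.65 and 16.8. The highest was Psme4 at 3419 per kilobase in quadriceps and Psme2 at 1305 in brown fat. A near-identical transcript of another gene, mostly a processed pseudogene, exists for 12 members. In the core these are Psma3, Psma4, Psma5, Psmb3 and Psmb5. In the base they are Psmc1, Psmd1 and Psmd2, and in the lid Psmd11. The others are Psmg3, Psme2 and Psme2b. The part of lost reads in the levels of these members and in their ratios between the tissues was not tested.

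**Figure D3:**
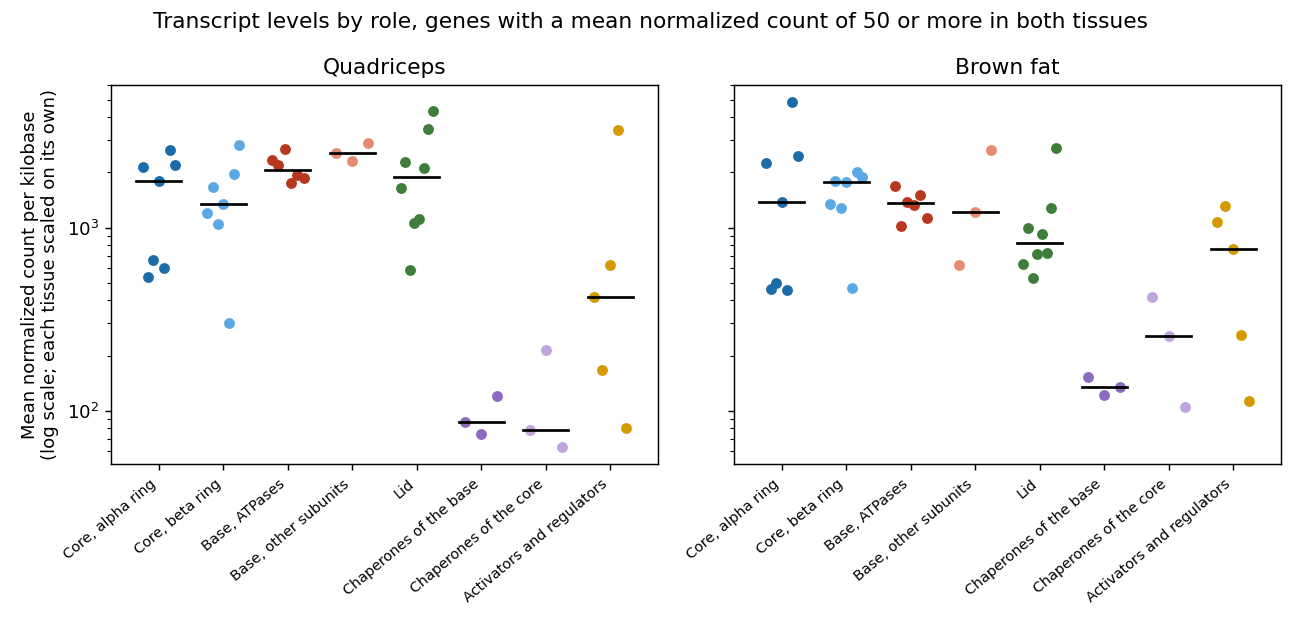
Mean normalized count per kilobase of transcript on a log axis, by role, in quadriceps (left) and brown fat (right), with 1 point per gene and a bar at the median of each role, for the genes that had means of 50 or more in both tissues. Base and lid medians lie above the core median of 1503 in quadriceps and below the core median of 1578 in brown fat, and the chaperones lie lowest in both.

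The make-up of the proteasome transcripts differed between quadriceps and brown fat. The tables were normalized separately and hold no value per library, so these level ratios have no test. Each level was divided by the core median of its own tissue. By this measure the base stood at 1.53 times the core in quadriceps and 0.847 times in brown fat, and the lid at 1.25 and 0.523 times. All 9 base genes and all 8 lid genes had a higher ratio to the core in quadriceps than in brown fat. The median quotient was 1.73 for the base, with a range from 1.14 for Psmd4 to 4.28 for Psmd1. For the lid it was 2.05, from 1.17 for Psmd13 to 3.05 for Psmd6. The core genes lay on both sides of 1, with 6 of 14 above it, from 0.575 for Psma6 to 1.57 for Psmb7. Their range overlaps those of the base and the lid. The share of all genes above 1 on this scale was not computed. Scaled instead to the summed counts of each table, the medians were 1.005 for the base, 1.19 for the lid and 0.572 for the core, so which of them differs in absolute terms depends on the scale. Scaled to the median ratio of all 9275 genes that had means of 50 or more in both, they were 1.89, 2.23 and 1.075.

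Among the caps, Psme4 and the interferon-inducible pair Psme1 and Psme2 differed in opposite directions between the tissues. On a counts-per-million scale (CPM) of the summed mean normalized counts, Psme4 was at 1055 CPM in quadriceps and 132 CPM in brown fat, which ranked it 85th and 1391st among all genes. Its level relative to the core was 13.8 times as high in quadriceps as in brown fat. Of all genes that had means of 50 or more in both, 2.29% had a ratio between the tissues at least as high. Psme1 stood at 22.0 CPM in quadriceps and 92.5 in brown fat, and Psme2 at 7.60 and 97.9, so that their levels relative to the core were 0.409 and 0.134 times those of brown fat. For Psme3, the gene of PA28gamma, that ratio was 0.854. The chaperone Psmg1 was at 3.87 CPM in quadriceps and 34.1 in brown fat, a ratio of 0.113 on the CPM scale, where that of Psme4 was 8.01.

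**Figure D4:**
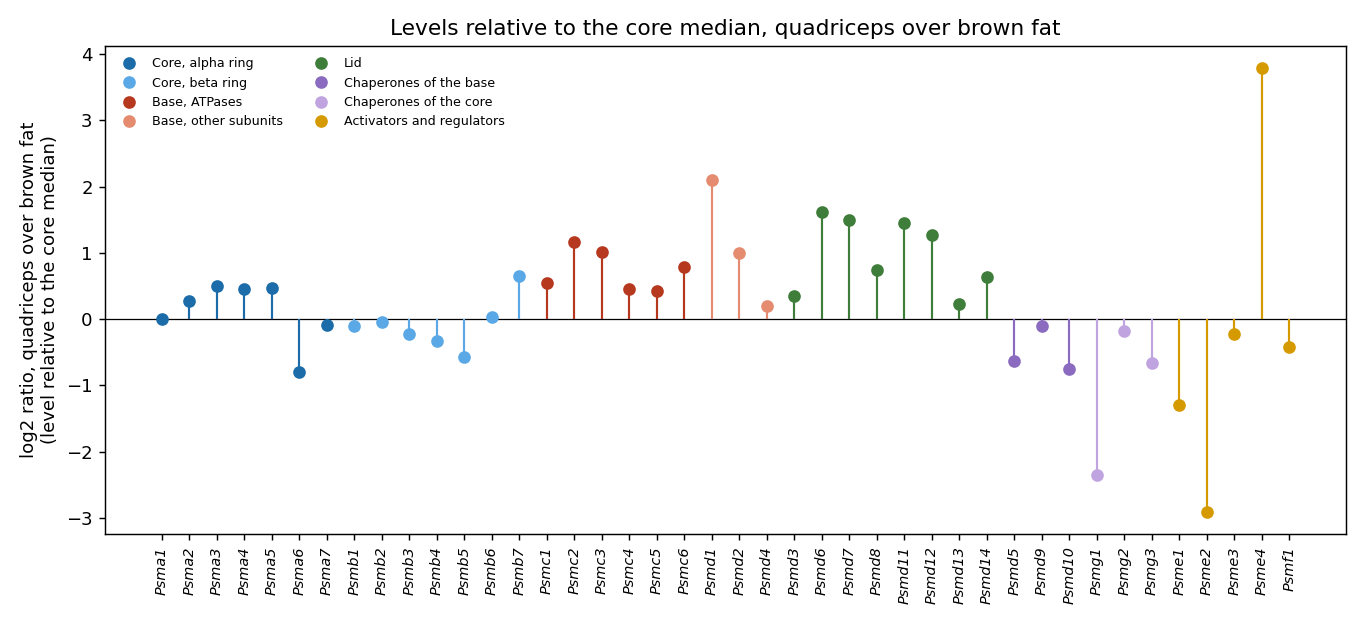
Log2 ratio of quadriceps over brown fat for each gene that had means of 50 or more in both tissues, after division of each level by the core median of its tissue, coloured by role. All base and lid genes are above 0, core genes lie on both sides of 0, and the chaperones are below 0. Psme4 (3.79) and Psme2 (-2.90) are the extremes.

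The tissues carried their defining markers. Ucp1, the uncoupling protein of brown fat, was at 0.318 CPM in quadriceps and 3710 in brown fat, and Acta1, the actin of skeletal muscle, at 18200 and 1540. As shares of the summed counts, the levels of 10 muscle fibre markers in brown fat were 3.3% to 26.0% of those in quadriceps, with a median of 6.49%, so the brown fat libraries also held these transcripts. Their part in the brown fat levels of Psme4 and of the base and lid genes was not tested. These markers had values between -0.029 and -0.0023 on the log2 scale in brown fat in the authors' deposited table. Their standard errors there ran from 0.0529 to 0.0755, against a median of 0.112 for genes with a mean of 50 or more. Because the deposited fold changes behave as shrunken towards 0, these values do not show equal muscle content in both genotypes. In all, the members held 0.569% of the summed mean normalized counts in quadriceps and 0.562% in brown fat. Without the 20 highest genes in the sum, these shares were 0.883% in quadriceps and 0.648% in brown fat.

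Genes around the proteasome gave no call either. Over all genes 48.3% were below 0 in quadriceps and 48.8% in brown fat, and the counts in the lists below were not tested. Of 11 listed proteasome-associated genes, 7 were below 0 in quadriceps and 7 in brown fat, with medians of -0.033 and -0.030 and 0 past the test in the authors' deposited tables. Ube3a, a ubiquitin ligase that binds proteasomes, had the smallest p in quadriceps, with 0.21 ± 0.13 (SE; p = 0.112, adjusted p = 1.00), and AI314180, an older symbol of the proteasome adaptor Ecpas, in brown fat, with -0.087 ± 0.095 (SE; p = 0.361, adjusted p = 1.00), in the authors' deposited DESeq2 tables. Pomp, the chaperone that completes the core, was at -0.059 in quadriceps and -0.032 in brown fat in the authors' deposited tables.

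Of 7 genes that process or encode the Nfe2l1 factor and its relative Nfe2l2, all 7 were below 0 in quadriceps and 5 in brown fat, with medians of -0.11 and -0.044 and 0 past the test in the authors' deposited tables. The shares of all genes below 0 were 48.3% in quadriceps and 48.8% in brown fat. Genes of a list share the same libraries, and no test of these sign counts was made. Nfe2l1 itself was at -0.041 ± 0.094 (SE) in quadriceps and 0.068 ± 0.089 (SE) in brown fat in the authors' deposited tables. Ufd1l and Nploc4, cofactors of the segregase Vcp that draws the factor out of the endoplasmic reticulum, were at -0.16 ± 0.099 (SE; p = 0.104, adjusted p = 1.00) and -0.15 ± 0.094 (SE; p = 0.107, adjusted p = 1.00) in quadriceps in the authors' deposited DESeq2 table. In brown fat Ngly1, the deglycosylase of the factor, had the smallest p of these genes, with -0.10 ± 0.11 (SE; p = 0.360, adjusted p = 1.00) in the authors' deposited DESeq2 table. Of 11 genes of ubiquitin, its activating enzymes and shuttle receptors, 8 were below 0 in quadriceps and 9 in brown fat, with medians of -0.040 and -0.018 and 0 past the test in the authors' deposited tables. Uba6, a second activating enzyme of ubiquitin, had the smallest p of that list in quadriceps, with 0.19 ± 0.13 (SE; p = 0.139, adjusted p = 1.00), and was at 0.12 in brown fat, in the authors' deposited DESeq2 tables. Ubqln2, a shuttle receptor, had the smallest p in brown fat, with -0.12 ± 0.11 (SE; p = 0.268, adjusted p = 1.00), and was at -0.0085 in quadriceps, in the authors' deposited DESeq2 tables. Ubb, a polyubiquitin gene, was at -0.10 in quadriceps and -0.018 in brown fat in the authors' deposited tables.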

How the data were processed

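RNA of quadriceps and brown fat was sequenced as 16 libraries, 4 per genotype and tissue, from stranded single-end reads of 75 bases, per the labels' protocols. The submitters' processing notes name STAR 2.5.1b, DESeq2 1.10.1 and mm9, without roles. The read counter and annotation were not given in the sources used here.

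Per the file headers, the authors' tables hold a mean normalized count, treated as a signal over the 8 libraries of a tissue. Fold changes were deposited as log2 values with standard errors. Their quotient is the Wald score in the authors' table, from which each p-value the authors gave, raw or adjusted, was recomputed to rounding. The brown fat table gives no adjusted p for 6 members. The log2 fold changes behave as shrunken, since the median standard error was 0.0223 in quadriceps and 0.0181 in brown fat below a mean of 1, against 0.122 and 0.112 from a mean of 50. No header names the numerator. It was read as the genotype each table names first, and the brown fat sign was turned to uORF-TAA over wild type.

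Differences between tissues were tested with a two-sided normal test over all genes, which treats the tissues as independent. Depth was estimated from genes with 1 read in 1 library. Transcript lengths came from GENCODE M21, as did gene overlaps, and BLAST 2.17.0 found copies of at least 95% identity over 200 bases. The steps for p-values, their adjustment and the difference between tissues were tested on simulated data. The members and lists were chosen with earlier results of these data known. Every member is named. Errors and p are given for the 2 members of smallest p per role and tissue and for any p under 0.05. Pathway lists are given by counts with their genes of smallest p and a few others chosen for their role. The design foresaw tables without counts per library and used the deposited test. Thresholds, filters on mean count, scaling and the reading of the brown fat table were varied.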

Additional observations from a re-analysis of the deposited data

How the results depend on the processing

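No alternative brought a member past an adjusted p of 0.05 or 0.1 in quadriceps or brown fat, including adjustment over every gene with a p-value or over genes whose mean was 50 or more, and 0 members passed the test between tissues at an unadjusted p under 0.05, with the opposite reading of brown fat, or among genes whose means were 50 or more in both. With the opposite reading of brown fat, the median of all members turned from -0.0084 to 0.0084. At an unadjusted p under 0.1, 1 member was lower in quadriceps (Psmd11). In brown fat 0 members were higher at an unadjusted p under 0.01. Under the opposite reading of its numerator, 0 were higher, 1 was lower (Psme1) and 12 of 33 core, base and lid genes were below 0, against 21. In another alternative, the median of genes whose mean was 50 or more was subtracted (0.0064 in brown fat and 0.0021 in quadriceps). With it, 26 of 33 core, base and lid genes were below 0 in brown fat and 30 in quadriceps. The brown fat median of the core turned from 0.0019 to -0.0045 by this subtraction. The members' share of counts was 0.883% in quadriceps and 0.648% in brown fat without the 20 highest genes, and 0.826% and 0.814% per kilobase. Per kilobase of coding sequence, a scale added after the data were seen, the base stood at 1.15 times the core in quadriceps and 0.676 times in brown fat, and the lid at 1.17 and 0.549 times. Other scales of the level ratios and the sign counts of core, base and lid genes were also added after the data were seen. No paired analysis was possible because the tables hold no values per library, and for the same reason no library could be left out.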
